A study of Homo sapiens with 8 samples.

Results

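The genes that build and transfer the N-glycan were followed across the chemical treatments of HepaRG, a human liver cell line that differentiates in culture into cells with hepatocyte features. The 33 genes were taken by symbol from the gene table, in which each of them occurred once among 62703 genes. They were grouped by role into 4 genes of dolichol supply, 1 of amino sugar supply, 5 of dolichol phosphate sugars, 6 of cytosolic assembly, 7 of luminal assembly and 10 of the oligosaccharyltransferase. Terminally differentiated HepaRG cells were held for a week in plating medium and then exposed for 24 h to tunicamycin (0.001, 0.01 or 0.1 µM), brefeldin A (0.001, 0.01 or 0.1 µM), cycloheximide (0.2, 2 or 20 µM), etoposide (0.25, 2.5 or 25 µM), rotenone (0.2 or 0.4 µM), tert-butylhydroquinone (tBHQ; 3, 30 or 300 µM) or troglitazone, with 0.1% DMSO as the vehicle of the controls and of every solubilized chemical, or to medium alone. For troglitazone the cell table names 50 µM whereas the sample labels name 0.001 to 0.1 µM, so its dose is uncertain here. Fixed single cells were barcoded together and split over 8 sublibraries, and the cell table assigned each cell to a culture by treatment, dose and a run number.

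N-linked glycosylation starts on dolichol phosphate, a long lipid of the endoplasmic reticulum membrane. Enzymes on the cytosolic face add N-acetylglucosamine and mannose to it, the lipid-linked glycan flips into the lumen, further mannoses and glucoses are added, and the oligosaccharyltransferase moves the finished glycan onto asparagines of nascent proteins. Hepatocytes secrete large amounts of N-glycosylated plasma proteins. Tunicamycin blocks DPAGT1, the enzyme of the first step, and unglycosylated proteins that misfold in the lumen are known to switch on the unfolded protein response.

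Levels are given as counts of unique molecular identifiers (UMIs) per 1000000 UMIs of the culture (CPM), summed over its cells, so each is a share of the culture's RNA and not an amount per cell. Of 12976 cells, 8406 had at least 500 detected genes and at most 20% mitochondrial UMIs, and 8340 of those lay in the 38 cultures that held at least 30 such cells. These cultures had 37 to 1434 cells and 1741603 to 97081214 UMIs each. DMSO was represented by 4 cultures (runs 3, 4, 5 and 6), 12 conditions by at least 2 cultures and 7 by 1 culture. No source used here says whether cultures of one treatment came from separate platings, and the study's methods describe a single biological replicate of each condition, so the p-values measure a spread between cultures that may be technical. In 3 cultures the mitochondrial share of the summed UMIs of the cells used was far below the rest: DMSO run 4, cycloheximide 0.2 µM run 4 and troglitazone run 4 had 2.29 to 4.24%, against 9.29 to 17.7% in the 30 other cultures outside rotenone and cycloheximide 20 µM. All 10 hepatocyte markers were detected in the DMSO cultures, with summed levels of 10753 to 26580 CPM, whereas the sums of 6 cholangiocyte, 9 mesenchymal and 4 immune markers stayed at or below 242 CPM.

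Promoter sequences were examined because the unfolded protein response acts through short DNA elements, and 29 of the 33 genes had a RefSeq window of 250 bases before the start site (GRCh38.p14). No window was used for ALG10, RPN1, STT3B or TUSC3. The 29 genes had 40 windows in all, and a gene was counted if any of its windows held the motif. The background shares are per window, so they are not like for like with the counts of genes. The endoplasmic reticulum stress element ERSE, searched on both strands as CCAAT, any 9 bases and CCACG, occurred in 0.074% of 35116 windows and in 1 of the 29 genes, ALG12. The core GACGTG of the element bound by XBP1 and ATF6 occurred in 6.5% of windows and in 5 of the 29 genes, namely ALG14, DAD1, DHDDS, DPM3 and GFPT1. ERSE-II (ATTGG, any base and CCACG, 0.0513% of windows), the longer UPRE (TGACGTGG, 0.612%, which overlaps GACGTG) and the ATF4 element CARE (TGATGCAA, 0.772%) were found in none of the 29. The GFPT1 and ALG12 stretches are shown with the motif in capitals, beside that of HSPA5, the chaperone gene used as the marker of endoplasmic reticulum stress. Each is written 5′ to 3′ on the minus strand, the strand of the gene, and bases annotated as untranslated region by GENCODE were left off.
GFPT1, chr2:69387251-69387477: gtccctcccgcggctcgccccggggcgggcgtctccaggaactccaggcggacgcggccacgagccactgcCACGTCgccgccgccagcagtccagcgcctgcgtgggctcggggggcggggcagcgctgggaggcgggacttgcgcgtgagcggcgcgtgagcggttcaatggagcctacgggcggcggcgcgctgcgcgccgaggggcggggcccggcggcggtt
ALG12, chr22:49918439-49918633: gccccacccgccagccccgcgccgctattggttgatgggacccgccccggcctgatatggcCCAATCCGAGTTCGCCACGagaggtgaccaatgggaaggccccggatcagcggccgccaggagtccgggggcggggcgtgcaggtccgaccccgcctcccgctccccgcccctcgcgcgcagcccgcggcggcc
HSPA5, chr9:125241383-125241593: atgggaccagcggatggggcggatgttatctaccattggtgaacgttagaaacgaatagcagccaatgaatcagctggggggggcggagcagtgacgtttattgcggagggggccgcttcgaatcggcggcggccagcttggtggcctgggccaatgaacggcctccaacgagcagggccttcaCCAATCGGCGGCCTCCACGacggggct
The GFPT1 motif is the reverse complement of GACGTG. The GFPT1 and HSPA5 stretches lie just outside their annotated genes, and the ALG12 stretch lies within the annotated span of CRELD2, on the other strand, and outside its exons. The ERSE before ALG12 (chr22:49918554-49918572) is the same 19 bases as the ERSE found before CRELD2, an unfolded protein response gene. The window of DPAGT1 held none of the 5 motifs and is not shown, because all 250 of its bases fall in annotated exons of DPAGT1 itself.

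The 33 genes were first described by their levels over all 38 cultures. Outside rotenone and cycloheximide 20 µM, the highest of 33 cultures was 1.61 times the lowest for TUSC3, a thioredoxin-like oligosaccharyltransferase subunit, with a range of 249.9 to 402.9 CPM and a median of 305.3 CPM. For STT3B, a catalytic subunit of the same enzyme, the range was 70.6 to 116.7 CPM and the ratio 1.65. DPAGT1, the tunicamycin target, varied 3.57 times, from 3.80 CPM in DMSO run 4 to 13.6 CPM, and the lowest value rests on 13 UMIs. The range was wide for OST4, a very small subunit, whose lowest value was 1.15 CPM and rests on 2 UMIs. ALG10 and ALG10B, which add the last glucose, are near-identical copies, so reads may be split between them and their separate values are uncertain. The highest level of most genes lay in rotenone or cycloheximide 20 µM, as the heat map of levels shows.

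**Figure D1:**
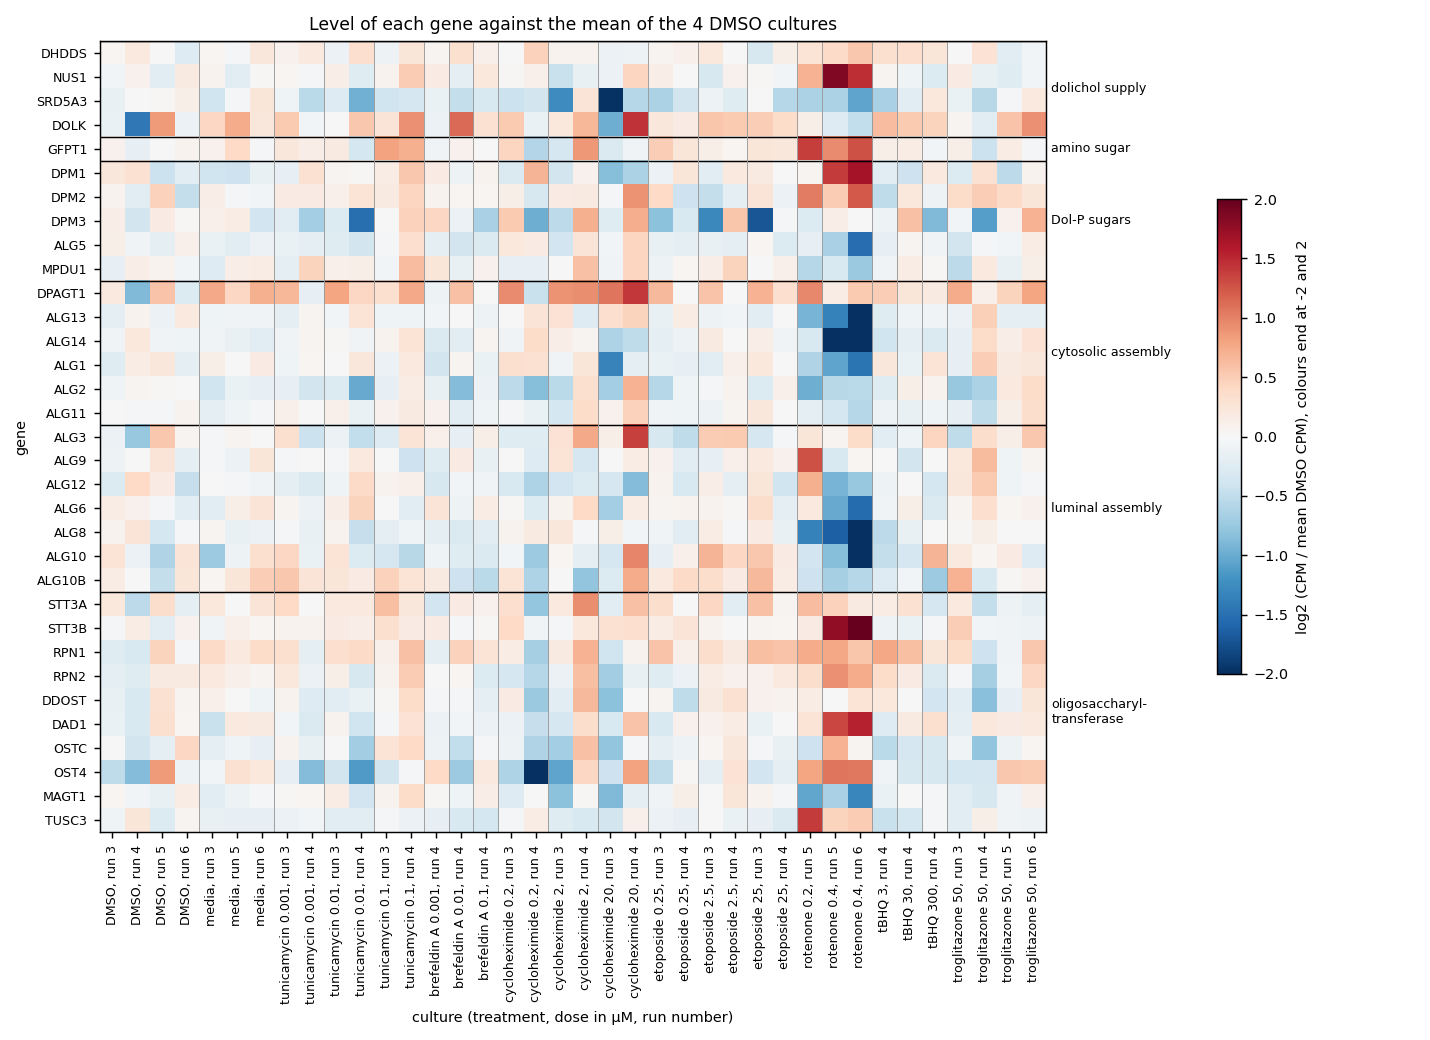
Each row is 1 of the 33 genes, ordered by role, and each column 1 of the 38 cultures; the colour is the log2 ratio of the culture's CPM to the mean of the 4 DMSO cultures, with colours ending at -2 and 2. Strong colours fall in the rotenone 0.4 µM columns, red for STT3B, NUS1 and DPM1 and blue for ALG14, ALG8 and ALG13, and GFPT1 is red in both columns of tunicamycin 0.1 µM.

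Tunicamycin was used to ask how the cells respond when the first step of glycan assembly is blocked. At 0.1 µM (2 cultures, runs 3 and 4) none of the 33 genes passed the test against the 4 DMSO cultures by edgeR's quasi-likelihood test with Benjamini-Hochberg adjustment, where 0.00538% of 18577 genes did. That share is 1 gene, known only by the identifier ENSG00000223786. Of the 33 genes, 1 had an unadjusted p under 0.05, where 676 of all genes did, and DESeq2 called 0, where it called 27. The median log2 fold change of the 33 was 0.18, against -0.02 over all genes tested, and 24 of them lay above 0. Both treated cultures exceeded every DMSO culture for GFPT1, ALG11, ALG10B and STT3B, which is 4 of 33 against 4.92% of all genes, and both lay below for SRD5A3, against 6.32%.

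GFPT1, the first and rate-limiting enzyme of the hexosamine pathway that supplies N-acetylglucosamine, had the largest difference of the 33 at 0.1 µM. Its levels were 86.0 and 80.9 CPM in the treated cultures and 52.3, 43.9, 49.2 and 51.9 CPM in DMSO runs 3 to 6. The treated cultures lay above all DMSO cultures, with means of 83.5 ± 3.62 CPM (SD, n = 2) against 49.3 ± 3.86 CPM (SD, n = 4). The log2 fold change was 0.76 ± 0.16 (SE), with an adjusted p of 0.545 by edgeR. With run as a block, fitted on the 2 treated and 2 DMSO cultures of runs 3 and 4 only, it was 0.79. There the adjusted p was 0.0145 by edgeR, and 120 genes passed in all. Of the DMSO cultures in that fit, run 4 is of low mitochondrial share and had the lowest GFPT1 level in DMSO, 43.9 CPM. In the 3 cultures of that kind GFPT1 had 32.7 to 43.9 CPM, against a median of 53.6 CPM in the 30 others outside rotenone and cycloheximide 20 µM. GFPT1 differed from DMSO of the same run by 0.71 in run 3 and 0.87 in run 4 (log2 of CPM plus 1). At 0.01 µM the levels were 56.0 and 38.5 CPM and at 0.001 µM 57.9 and 53.9 CPM. Both 0.001 µM cultures thus also lay just above the DMSO range while 1 of the 0.01 µM cultures lay below it. Levels above the DMSO range were not particular to tunicamycin. Both cultures exceeded every DMSO culture at etoposide 0.25 µM (69.6 and 58.6 CPM) and 25 µM (58.0 and 58.0 CPM). Cycloheximide 2 µM had 39.2 and 89.7 CPM.

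DPAGT1, which transfers N-acetylglucosamine phosphate to dolichol phosphate, had 8.75 and 11.9 CPM at 0.1 µM. In DMSO its levels were 8.05, 3.80, 10.4 and 5.81 CPM, and the groups overlapped. Its log2 fold change was 0.49 ± 0.36 (SE). The 0.01 µM cultures had 12.1 and 9.31 CPM and the 0.001 µM cultures 11.1 and 6.28 CPM, so 1 culture at each of these doses lay within the DMSO range. The DMSO cultures held 490 UMIs of DPAGT1 in all. The lowest DMSO value is that of run 4, the culture of low mitochondrial share, and the difference from the DMSO culture of the same run was 1.43 (log2 of CPM plus 1) in run 4 against 0.11 in run 3.

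The other groups stayed close to DMSO at 0.1 µM. Among the genes of dolichol supply, NUS1, a subunit of the cis-prenyltransferase, had a log2 fold change of 0.31 and SRD5A3, the polyprenol reductase, of -0.36, with 8.45 and 8.80 CPM against 9.96 to 12.0 CPM. Among the dolichol phosphate sugars, values ran from 0.17 for ALG5, the glucosyl donor synthase, to 0.37 for DPM1, the catalytic subunit of mannosyl donor synthase. The luminal mannosyl- and glucosyltransferases ranged from -0.39 (ALG10) to 0.40 (ALG10B). Of the 10 oligosaccharyltransferase genes, 8 lay above 0, led by STT3A, a catalytic subunit, at 0.40 ± 0.25 (SE), while TUSC3 was at -0.07 and OST4 at -0.25. None of these passed the test. At 0.01 µM and 0.001 µM the counts of the 33 past the test were 0 (0% of 19586 and 0% of 22539 genes). At an unadjusted p under 0.05 there were 1 and 0 of the 33, where 571 and 381 of all genes passed. DESeq2 called 0 of the 33 at each dose, and the medians were -0.01 at both.

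The unfolded protein response genes served as a check of the 0.1 µM cultures. All 21 listed genes had a log2 fold change above 0, with a median of 0.62. Both treated cultures lay above every DMSO culture for 15 of them, against 4.92% of all genes. At an unadjusted p under 0.05, 15 were higher and 0 lower, and of all 18577 genes tested 676 passed, 328 of them higher, but 0 of the 21 passed the edgeR test and the smallest adjusted p was 0.573. DESeq2 called 3 of the 21, all higher, and 19 genes higher in all. HSPA5 had 668.2 and 457.7 CPM against 287.7 to 377.9 CPM in DMSO (log2 fold change 0.80 ± 0.20, SE). The values were 0.85 for DNAJB9, a co-chaperone of HSPA5, 0.73 for SDF2L1, a luminal stress protein, 0.57 for HERPUD1, a degradation factor, and 0.62 for DDIT3, the transcription factor CHOP. CRELD2, which shares its ERSE with ALG12, had 0.66 ± 0.27 (SE) and ALG12 had 0.10 ± 0.29 (SE). Of 33 other genes of glycan supply and trimming, 0 passed the test, the median was 0.05, and PGM3, a hexosamine pathway enzyme downstream of GFPT1, was the 1 with an unadjusted p under 0.05 (0.47 ± 0.18, SE).

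**Figure D2:**
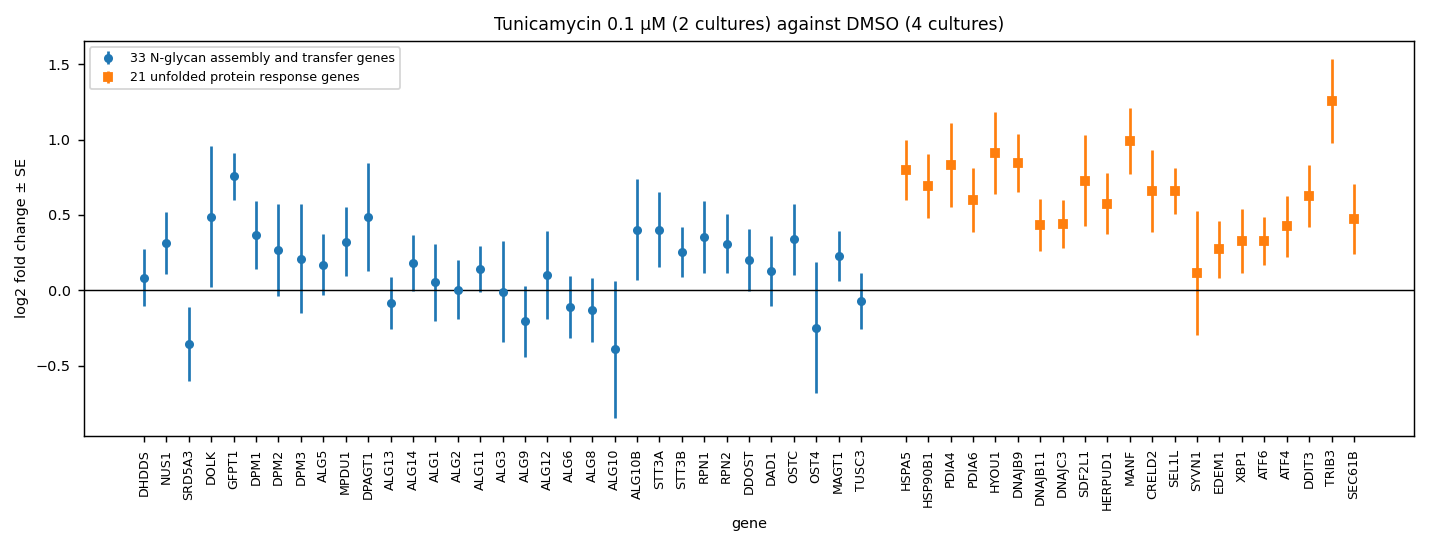
Points give the log2 fold change at tunicamycin 0.1 µM (2 cultures) against DMSO (4 cultures) with bars of 1 SE, for the 33 N-glycan assembly and transfer genes on the left and 21 unfolded protein response genes on the right. The 33 scatter around a median of 0.18 with GFPT1 highest at 0.76, and all 21 unfolded protein response genes lie above 0.

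Rotenone, an inhibitor of mitochondrial complex I, gave the widest changes of the 33 genes among the tested conditions. At 0.4 µM (2 cultures, runs 5 and 6) 9 of them rose and 10 fell, where 61.4% of 19831 genes changed, 19.1% higher and 42.2% lower. Thus 19 of 33 is close to the share over all genes, and the split between directions is more even. The median log2 fold change was 0.03 for the 33 and -0.56 for all genes tested. The split depends on the scaling: with TMM factors 14 of the 33 were higher and 5 lower, over all genes 5570 were higher and 6078 lower, and the median over all genes moved from -0.56 to -0.10. The values here are relative to the culture's total UMIs. Both treated cultures lay above all DMSO cultures for 11 of the 33 (22.2% of all genes) and below for 14 (46.4%).

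By role, 5 of 10 genes of the oligosaccharyltransferase rose and 1 fell. In cytosolic assembly 0 of 6 rose and 4 fell, and in luminal assembly 0 of 7 rose and 3 fell. Over all genes 19.1% rose and 42.2% fell, so the falls in luminal assembly are near the share over all genes. Dolichol supply had 1 in each direction, the dolichol phosphate sugars 2 higher and 1 lower, and amino sugar supply its 1 gene higher. With TMM factors 9 oligosaccharyltransferase genes were higher and 0 lower, and the assembly genes kept 0 higher with 3 lower in cytosolic and 2 lower in luminal assembly. With DMSO cultures of the same runs only, with or without run as a block, 11 of the 33 passed. There 2 oligosaccharyltransferase genes were higher and 1 lower, and the assembly genes had the same counts as with TMM factors. The share over all genes under these settings is not reported here, so the 11 cannot be set beside it. The difference between the groups of genes was not tested.

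STT3B, the catalytic subunit that acts largely after translation, rose most. It had 284.4 and 356.7 CPM against 81.3, 91.9, 70.6 and 88.0 CPM in DMSO runs 3 to 6, with a log2 fold change of 1.95 ± 0.20 (SE) and an adjusted p of 6.18e-06 by edgeR. Both treated cultures stood far above the DMSO cultures. DAD1, a small subunit of the same enzyme, had 53.6 and 62.1 CPM against 17.3 to 26.5 CPM (1.43 ± 0.22, SE; adjusted p = 0.000156 by edgeR). RPN2 (0.82), RPN1 (0.66) and OST4 (0.99), structural subunits, also rose. MAGT1, a thioredoxin-like subunit of the STT3B complex, fell by 0.93 on the log2 scale, from 77.3 to 95.5 CPM in DMSO to 54.8 and 34.6 CPM, while its paralog TUSC3 had 460.4 and 484.1 CPM against 280.9 to 402.9 CPM and missed the threshold (0.48 ± 0.21, SE; adjusted p = 0.068 by edgeR). The 3 remaining subunit genes, STT3A (0.31), OSTC (0.42) and DDOST (0.13), did not pass, and the sign of DDOST turned to -0.058 with DMSO cultures of runs 5 and 6 only.

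NUS1, DPM1 and GFPT1 rose in the supply steps. NUS1 had 98.5 and 76.3 CPM against 23.3 to 30.9 CPM (1.69 ± 0.21, SE; adjusted p = 2.55e-05 by edgeR), whereas DHDDS, its partner in the cis-prenyltransferase, had 62.4 and 69.3 CPM against 39.8 to 55.0 CPM and did not pass (0.46 ± 0.20, SE). DPM1 had 167.7 and 201.8 CPM against 47.1 to 78.4 CPM (1.54 ± 0.23, SE), and DPM2, its regulatory subunit, rose by 0.84. The third subunit, DPM3, was at 0.03, with 2.47 and 2.24 CPM. GFPT1 had 95.2 and 119.5 CPM against 43.9 to 52.3 CPM (1.12 ± 0.19, SE; adjusted p = 0.000323 by edgeR). SRD5A3 fell by 0.80 and ALG5 fell by 0.99, while DOLK, the dolichol kinase, at -0.48 and MPDU1, needed to use both dolichol phosphate sugars, at -0.49 did not pass.

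The assembly genes that passed the test were all lower, where 42.2% of all genes were lower. ALG14, the membrane anchor of the second N-acetylglucosamine transfer, had 7.76 and 7.42 CPM against 29.7, 36.0, 29.6 and 29.5 CPM in DMSO runs 3 to 6 (-2.03 ± 0.25, SE; adjusted p = 2.4e-05 by edgeR). ALG13, its catalytic partner, had 22.8 and 12.7 CPM against 51.1 to 67.2 CPM (-1.69 ± 0.27, SE). Both partners lay below every DMSO culture. ALG1 (-1.22) and ALG2 (-0.55), the first mannosyltransferases, fell too, although ALG2 passed in none of the 14 alternative fits. ALG8, which adds the second glucose, had 10.3 and 5.46 CPM against 31.8 ± 5.51 CPM in DMSO (SD, n = 4; log2 fold change -1.96 ± 0.31, SE), and ALG6, which adds the first, had 11.7 and 8.12 CPM against 20.3 to 26.1 CPM (-1.23 ± 0.26, SE). ALG12, a luminal mannosyltransferase, fell by 0.84, a call that did not hold in all 14 alternative fits, and CRELD2 fell by 1.13. In the 0.2 µM culture ALG12 was at 16.0 CPM, above all DMSO cultures, and CRELD2 at 9.59 CPM, below all. DPAGT1 had 7.78 and 10.1 CPM, inside its DMSO range (0.26 ± 0.36, SE), and ALG3 (0.17), ALG9 (-0.14), ALG11 (-0.45), ALG10 (-1.08) and ALG10B (-0.59) did not pass.

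Of the 19 calls, 9 held in all 14 alternative fits, NUS1, GFPT1, DPM1, STT3B and DAD1 higher and ALG13, ALG14, ALG6 and ALG8 lower. With DMSO cultures of the same runs only, 5 of the 33 were higher and 6 lower, and the share over all genes is not reported here.

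**Figure D3:**
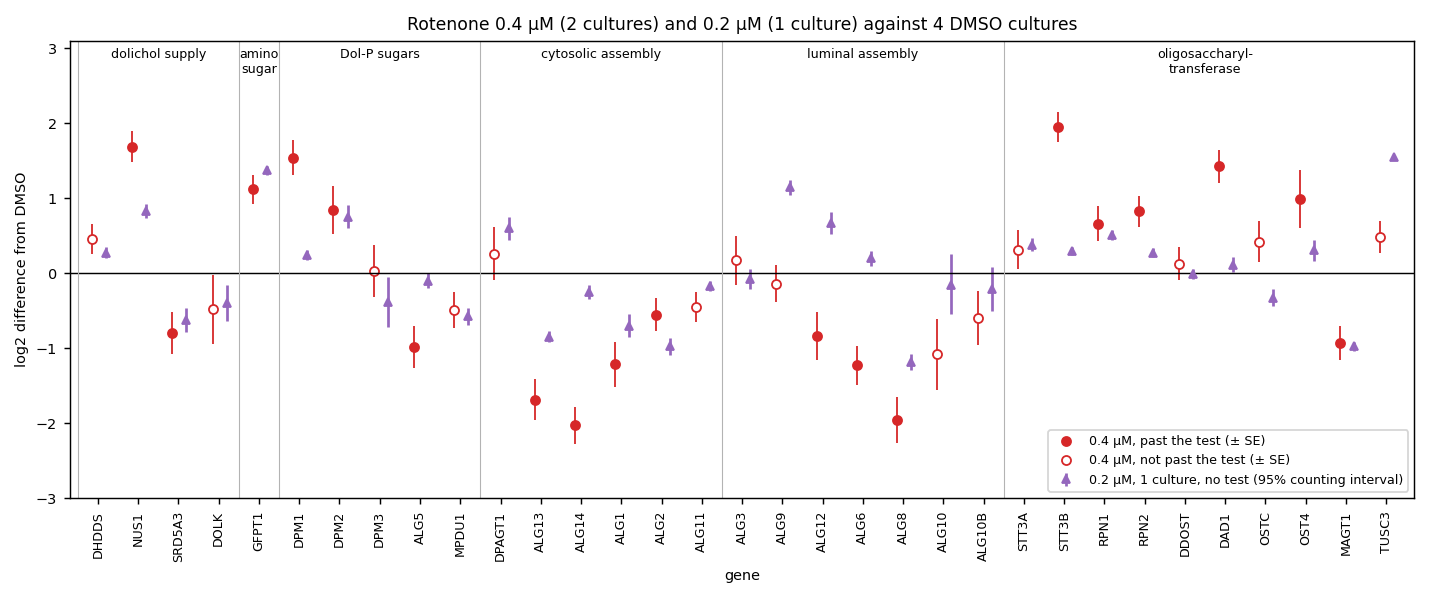
Circles give the log2 fold change of each of the 33 genes at rotenone 0.4 µM with bars of 1 SE, filled where the gene passed the test, and triangles the log2 ratio of the single 0.2 µM culture to summed DMSO with its 95% counting interval. STT3B, NUS1 and DPM1 stand highest and ALG14, ALG8 and ALG13 lowest at 0.4 µM, while TUSC3 and ALG9 stand higher at 0.2 µM.

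Other features moved with rotenone 0.4 µM, and their part in these results was not tested. The cells used had a median of 184485 UMIs each in run 5 and 45112.5 in run 6. In DMSO runs 3 to 6 the medians were 29790, 17080, 79381 and 32905. The summed level of 8 nuclear-retained RNAs was 20288 to 20582 CPM against 33381 to 52429 CPM in DMSO, and that of 9 mesenchymal markers 52.8 to 55.5 CPM against 122.3 to 241.6 CPM. The summed hepatocyte markers, at 9585 to 18457 CPM, overlapped DMSO, while 3 of the 10 were called lower and their median log2 fold change was -1.06. Endothelial markers summed to 50.2 to 51.9 CPM against 54.8 to 96.5 CPM. Of 4 proliferation markers 2 were called higher, with a median of 1.46, while their sum (372.4 to 538.8 CPM) overlapped DMSO (55.2 to 583.5 CPM, median 106.6 CPM). Among DMSO cultures each of the 4 was highest in run 3. MKI67, for example, had 231.2, 31.3, 69.1 and 20.1 CPM in DMSO runs 3 to 6, and 153.9 and 257.2 CPM at rotenone 0.4 µM in runs 5 and 6. Genes spanning over 100 kb had a median log2 fold change of -0.97, against -0.45 for 10 to 100 kb and -0.43 for under 10 kb. Among genes with a mean of at least 10 CPM these medians were -1.04, -0.12 and 0.28. STT3B spans 105.0 kb (chr3:31532638-31637616) and rose, whereas ALG14 spans 98.5 kb (chr1:94974405-95072951) and fell.

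**Figure D4:**
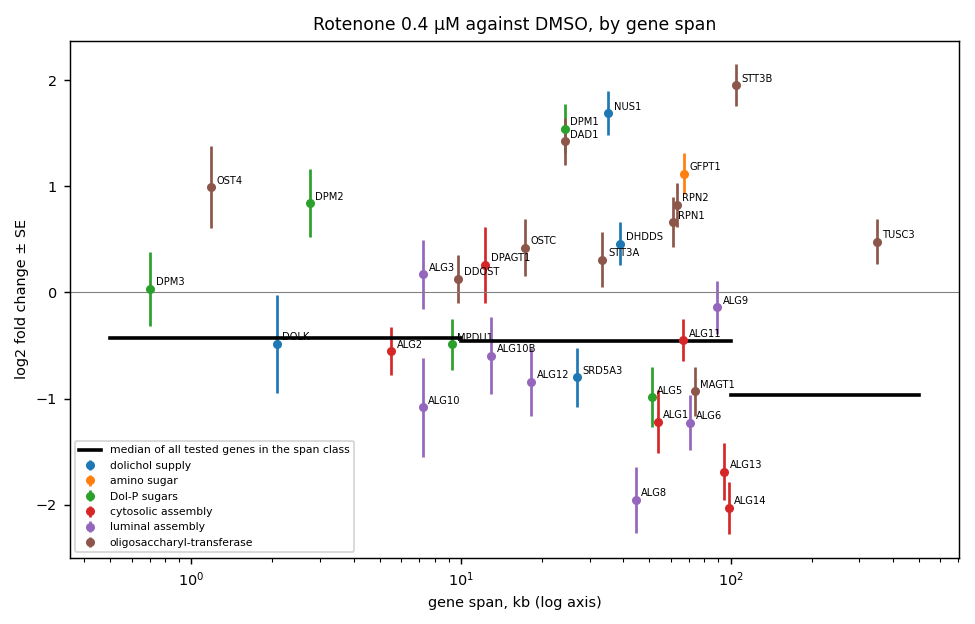
Each point is 1 of the 33 genes, with its span in kb on a log axis and its log2 fold change at rotenone 0.4 µM with bars of 1 SE, coloured by role; black lines are the medians of all tested genes in 3 span classes. STT3B and TUSC3 lie well above the median of -0.97 for genes over 100 kb. ALG13 and ALG14, with spans of 94.8 and 98.5 kb, sit just under the limit between the classes. They lie below both that median and the -0.45 of their own class, 10 to 100 kb.

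At 0.2 µM rotenone there was 1 culture, in run 5, with 97081214 UMIs and a median of 184833 UMIs per cell used, and no test was run. There 3 of the 33 were at least 2-fold higher than summed DMSO and 1 at least 2-fold lower, where 14.8% and 27.2% of 20686 genes were. TUSC3 was highest of its 38 values at 894.1 CPM, a log2 ratio of 1.56 (95% counting interval 1.53 to 1.58). GFPT1 had 128.8 CPM and a log2 ratio of 1.37 (1.31 to 1.43). ALG9, a luminal mannosyltransferase, had 43.3 CPM, a log2 ratio of 1.14 (1.05 to 1.24). ALG8 was lower, at 12.4 CPM (-1.18, from -1.29 to -1.07). The genes highest at 0.4 µM were nearer DMSO at 0.2 µM: the log2 ratios were 0.83 for NUS1, 0.29 for STT3B, 0.24 for DPM1 and 0.11 for DAD1. Both 0.4 µM cultures were at least 2-fold above the 0.2 µM culture for DPM1, STT3B and DAD1, and at least 2-fold below it for ALG14, ALG9, ALG12 and ALG6, as were 764 and 1853 of 9913 genes with a mean of at least 10 CPM.

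Of the 21 unfolded protein response genes, 8 rose and 2 fell at 0.4 µM, where 19.1% and 42.2% of all genes did. DESeq2, which scales by its own size factors, called 10 of them higher and 1 lower, with 5643 and 5564 over all genes. The largest rises were those of ATF4 (2.77), the transcription factor of the integrated stress response, SEC61B (1.70), a translocon subunit, DNAJC3 (1.67) and TRIB3 (1.45), an ATF4 target. DNAJB9 (1.33) and HERPUD1 (0.70) also rose, DNAJB11 (-1.47) and CRELD2 (-1.13) fell, and HSPA5 (0.18), DDIT3 (-0.52) and SDF2L1 (-0.81) did not pass. In the 0.2 µM culture TRIB3 had a log2 ratio of 4.78 and ATF4 of 1.95, while HSPA5 was at 0.09. Among the other glycan genes 4 rose at 0.4 µM, MGAT1 (1.20), which opens the complex branch, GNPDA1 (0.91), MLEC (0.87) and MAN2A1 (0.79), and those that fell included UGGT2 (-2.32), PMM2 (-1.54), the phosphomannomutase, and MOGS (-0.75), the first trimming glucosidase.

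**Figure D5:**
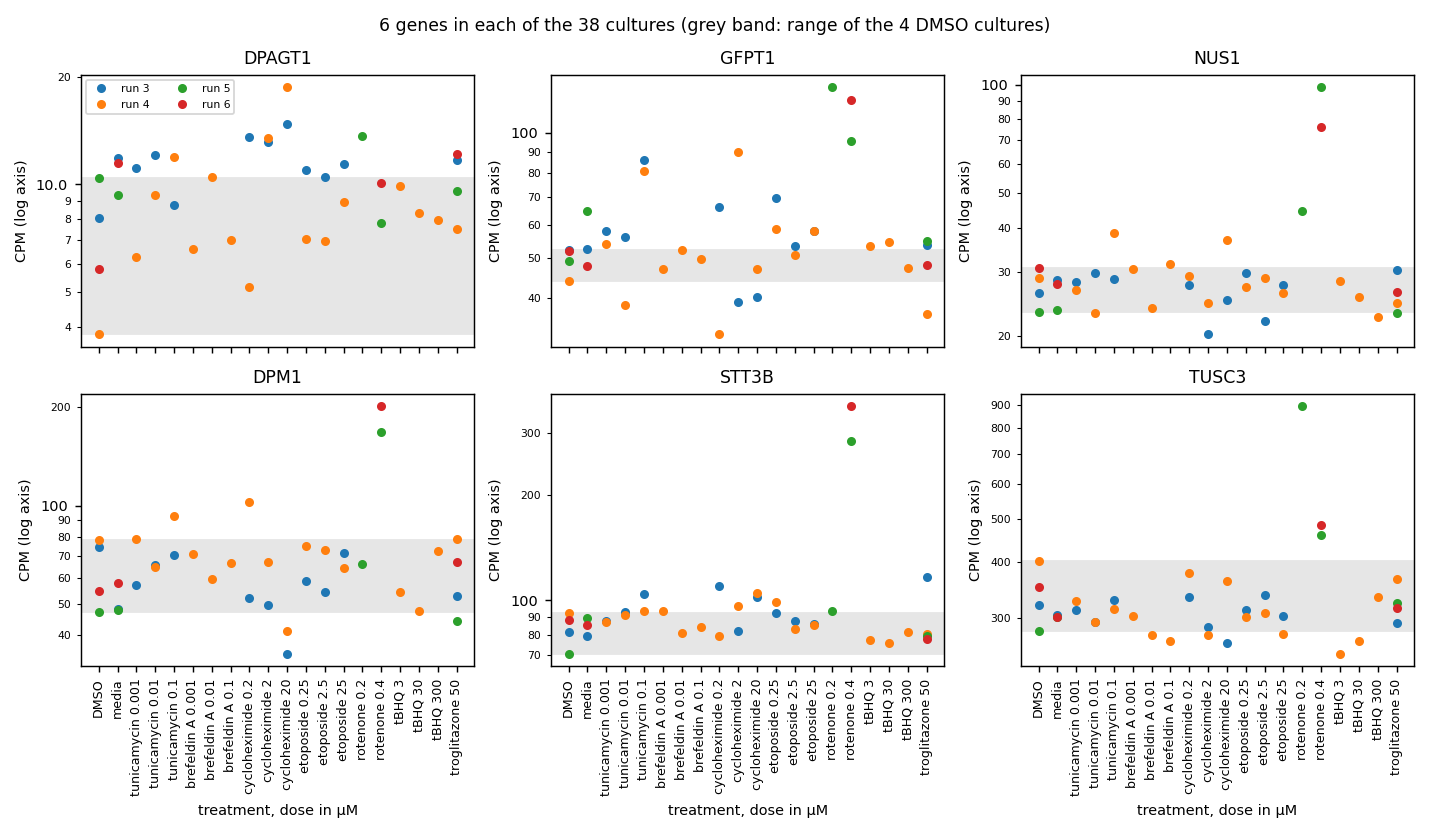
Points are the 38 cultures by treatment and dose in µM, coloured by run, with CPM on a log axis for DPAGT1, GFPT1, NUS1, DPM1, STT3B and TUSC3; the grey band is the range of the 4 DMSO cultures. GFPT1 lies above the band at tunicamycin 0.1 µM and in all 3 rotenone cultures. It also lies above it in cultures of other treatments, such as etoposide 0.25 µM and 1 at cycloheximide 2 µM. STT3B, NUS1 and DPM1 stand far above the band at rotenone 0.4 µM, and TUSC3 peaks at 894.1 CPM at rotenone 0.2 µM.

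Cycloheximide, which blocks translation elongation, changed 2 of the 33 genes at 20 µM (2 cultures, runs 3 and 4), 1 in each direction, where 19.7% of 18706 genes changed (6.52% higher and 13.2% lower). DPAGT1 rose, with 14.7 and 18.7 CPM against 8.05, 3.80, 10.4 and 5.81 CPM in DMSO, above every DMSO culture (1.17 ± 0.37, SE; adjusted p = 0.0467 by edgeR). SRD5A3 fell, with 2.81 and 7.49 CPM against 9.96 to 12.0 CPM (-1.32 ± 0.42, SE; adjusted p = 0.0466 by edgeR). With run as a block neither passed (adjusted p = 0.0833 for DPAGT1 and 0.149 for SRD5A3 by edgeR). Neither call held in all alternative fits, and the run 4 culture held 37 cells, with 35 UMIs of DPAGT1 and 14 of SRD5A3, which had 28 UMIs in run 3. Without DMSO run 3, run 4 or run 6 or without the run 3 treated culture, 0 of the 33 passed. The median of the 33 was 0.08.

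The DPAGT1 level was 13.1 and 13.4 CPM at 2 µM and 13.6 and 5.17 CPM at 0.2 µM. The 2 µM cultures lay above all 4 DMSO cultures, and the 0.2 µM run 4 culture is of the low mitochondrial kind. At 2 µM and 0.2 µM 0 of the 33 passed the test (0.00502% of 19926 genes and 0% of 18012), and DESeq2 called 0 of them. At each dose 1 of the 33 had an unadjusted p under 0.05, where 1457 and 674 of all genes did. At 20 µM 14 of the 21 unfolded protein response genes fell, led by SDF2L1 (-3.15), XBP1 (-2.41), CRELD2 (-1.99) and PDIA4 (-1.93), with HERPUD1 (-1.40), DNAJB9 (-1.01) and DDIT3 (-1.16) among them, and ATF4 rose (1.11). HSPA5 fell too, from a mean of 322.9 CPM to 162.7 CPM. Of the other glycan genes 6 fell, led by CALR (-1.38), a lectin chaperone, GMPPA (-1.36), UAP1 (-1.29) and PGM3 (-1.25), and PMM2 rose (0.60). The summed hepatocyte markers were 3118 to 7169 CPM in these cultures, below all DMSO cultures, and 8 of 9 tested markers were called lower. Cholangiocyte markers (23.4 to 51.4 against 93.6 to 145.9 CPM) and endothelial markers (26.9 to 35.3 against 54.8 to 96.5 CPM) also lay below all DMSO cultures, and nuclear-retained RNAs had 51301 to 54372 CPM. Their part in these results was not tested.

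None of the 33 genes passed the edgeR test in medium alone (0% of 20212 genes), etoposide at 0.25, 2.5 or 25 µM (0% of 21184, 19022 and 20160 genes) or troglitazone (0.078% of 17954 genes). Etoposide inhibits topoisomerase II and troglitazone activates the nuclear receptor PPARG. In these 5 comparisons 0, 1, 0, 1 and 0 of the 33 had an unadjusted p under 0.05, where 511, 546, 247, 890 and 453 of all genes did, and DESeq2 called 0 in each. With run as a block, 1 of the 33 (RPN1, higher) passed the edgeR test at etoposide 25 µM, where 248 genes did. That fit used DMSO run 4, of low mitochondrial share, where RPN1 had 34.5 CPM, its lowest level in DMSO. RPN1 differed from DMSO of the same run by 0.83 in run 3 and 0.86 in run 4 (log2 of CPM plus 1). Without the block, the median log2 fold changes of the 33 lay between -0.07 and 0.07. GFPT1 had 36.7 to 54.9 CPM in the 4 troglitazone cultures and DPAGT1 7.52 to 12.2 CPM. The lowest GFPT1 value was that of run 4, the culture of low mitochondrial share.

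Brefeldin A, which stops transport from the endoplasmic reticulum to the Golgi, and tBHQ, an activator of the NRF2 pathway, had 1 culture at each dose, all in run 4, so these comparisons have no replicate check. At least 2-fold differences from summed DMSO were seen in 7.34%, 5.97% and 2.88% of genes at 0.001, 0.01 and 0.1 µM brefeldin A and in 5.03%, 10.9% and 10.4% at 3, 30 and 300 µM tBHQ. Of the 33 genes, 1 was counted in these 6 cultures: OST4 at 0.01 µM brefeldin A, with 4.84 CPM from 42 UMIs against 11.2 CPM in summed DMSO (-1.21, from -1.70 to -0.76), where 5.19% of genes were at least 2-fold lower. That level lay within the range of the single DMSO cultures, 4.39 to 14.5 CPM. GFPT1 had 49.6 CPM and DPAGT1 7.00 CPM at 0.1 µM brefeldin A, both within the DMSO range. The members' median log2 ratio was -0.11 there, against -0.12 over all genes. HSPA5 was at 383.5 CPM (0.13), DNAJB9 at 0.30, SDF2L1 at 0.20, DDIT3 at 0.11 and HERPUD1 at -0.11 in the same culture.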

How the data were processed

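Single cells of human HepaRG cultures were profiled with a split-pool kit on polyadenylated RNA. The authors deposited unnormalized UMI counts per cell and gene (12976 cells by 62703 genes), a gene table and a cell table naming each cell's culture; per the labels, reads were aligned to GRCh38, and the pipeline's version is not given in the sources used here. Before fixation, cells were dissociated with inhibitors of transcription and translation. Counts were summed per culture over cells in which 500 or more genes were detected and mitochondrial UMIs made up no more than 20%, and cultures with under 30 such cells (9 of 47) were left out. All 12976 barcodes were distinct with their sublibrary, and 1735 cells had a well combination that also occurred in another sublibrary. Doublets were not called.

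Each condition with at least 2 cultures was fitted with the 4 DMSO cultures in edgeR 4.0.16 (R 4.3.3; quasi-likelihood, total-count scaling, filterByExpr), two-sided, Benjamini-Hochberg over all genes, threshold 0.05; all 33 members passed the filter. Single cultures were given as a log2 ratio to summed DMSO with an exact conditional binomial 95% interval (counting error only) and counted from 2-fold with at least 50 UMIs. DESeq2 1.42.0, other scalings and filters, blocks and left-out cultures were alternatives. The run block used only treated and DMSO cultures of runs that both had. Members, lists and tests were chosen with earlier results of these data known. All members were named, and of the other lists the 4 largest called changes a direction plus HSPA5, HERPUD1, SDF2L1, DNAJB9 and DDIT3. The scripts were tested on simulated counts. Spans came from GENCODE 44. The result of 1 gene of the other lists is not reported here.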

Additional observations from a re-analysis of the deposited data

Results flagged for a closer look

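Within groups of 4 cultures, 5 of 66 sets of member levels had 1 culture far from the others by Dixon's criterion, which chance meets in about 1 in 20. In DMSO, ALG14 was at 36.0 CPM in run 4 and at 29.5 to 29.7 CPM in the others. In the troglitazone cultures, run 4 stood high for ALG13 (81.2 CPM against 51.3 to 54.3 CPM) and ALG6 (29.8 CPM against 24.2 to 25.1 CPM). Run 3 stood high for STT3B (116.7 CPM against 77.5 to 80.2 CPM) and low for DAD1 (18.5 CPM against 23.9 to 24.7 CPM). Both run 4 cultures are of low mitochondrial share, and its part in these values was not tested.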

How the results depend on the processing

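Calls for the 33 genes were made only for rotenone 0.4 µM and cycloheximide 20 µM; for the other 10 tested conditions the count was 0 under every alternative except run as a block, which gave 1 at tunicamycin 0.1 µM (GFPT1, adjusted p = 0.0145 by edgeR) and 1 at etoposide 25 µM (RPN1). Whether run numbers pair cultures was checked by the correlation of same-run deviations over 10937 genes. It was 0.01 to 0.58 for troglitazone and -0.23 to 0.50 for medium. At the rising doses it was 0.64, 0.46 and 0.48 for tunicamycin, 0.58, -0.25 and -0.01 for cycloheximide and 0.44, 0.40 and -0.03 for etoposide. For rotenone 0.4 µM it was -0.25. The values were mixed, so the numbers were not taken as pairs in the fits reported. The paper corrected its main data for separate experimental runs, and its methods for this kit name no such step. The correlation was positive at every tunicamycin dose, including 0.1 µM, where the block changed the GFPT1 call. With this replicate block 11 genes of the 33 passed at rotenone 0.4 µM and 0 at cycloheximide 20 µM, and over all genes 274, 28 and 120 passed at the rising tunicamycin doses, 139 at cycloheximide 0.2 µM and 1718 at 20 µM, 118, 78 and 248 at the rising etoposide doses and 25 for troglitazone. DDOST at rotenone 0.4 µM turned to -0.059 under the block and to -0.058 with same-run DMSO cultures, an alternative added after the data were seen, which also gave 11 of the 33 there, 1 at cycloheximide 20 µM and 2323 genes. At cycloheximide 20 µM, TMM and DESeq2 size factors left 1 of the 33 each, and leaving out mitochondrial genes left 0. That setting left 0 genes at cycloheximide 2 µM. With no count filter 17 genes passed in medium, 52, 77 and 124 at tunicamycin, 72 and 241 at cycloheximide 0.2 and 2 µM, 42, 11 and 170 at etoposide and 33 for troglitazone. By DESeq2 there were 2 and 27 at tunicamycin 0.01 and 0.1 µM, 1 and 93 at cycloheximide 0.2 and 2 µM, 1, 1 and 19 at etoposide and 63 for troglitazone.

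For single cultures, DMSO run 4 as the only control gave 1, 2 and 2 of the 33 at the rising brefeldin A doses and 2 at tBHQ 3 µM. Over all genes there were 459 at brefeldin A 0.001 µM and 1319, 697 and 466 at the tBHQ doses. The counts over all genes at brefeldin A 0.01 and 0.1 µM are not reported here. DMSO run 4 is of low mitochondrial share and held 3417334 UMIs of the cells used. With all cells OST4 was lost and 0 remained at brefeldin A 0.01 µM. GFPT1's mean became 55.9 CPM in DMSO and 96.4 CPM at tunicamycin 0.1 µM without mitochondrial genes, and 74.3 CPM with all cells.

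Leaving out 1 culture at a time gave 0 to 1 genes in medium (1 without DMSO run 5), 0 to 1, 0 to 2 and 1 to 3 at the tunicamycin doses (most without the run 3, run 4 and run 4 treated culture), 0 to 1 and 0 to 4 at cycloheximide 0.2 and 2 µM (most without the run 4 treated culture), 0 to 57 at etoposide 25 µM (57 without DMSO run 3) and 8 to 17 for troglitazone (8 without DMSO run 3, DMSO run 6 or the run 6 treated culture). At cycloheximide 20 µM it gave 1928 to 3497 genes, fewest without the run 3 treated culture, and 0 to 3 of the 33. At rotenone 0.4 µM 13 to 18 of the 33 passed, and DDOST ran from -0.020 (without the run 6 treated culture) to 0.26. Counts of 2-fold differences were 351 to 1351 genes at brefeldin A 0.001 µM, 1008 to 1597 at tBHQ 30 µM and 852 to 1637 at tBHQ 300 µM, all lowest without DMSO run 5, with 4 to 8 of the 33 at rotenone 0.2 µM (8 without DMSO run 5) and 0 to 1 at tBHQ 30 and 300 µM. Causes were not tested. SRD5A3, DOLK, DPM2, DPM3, DPAGT1, ALG1, ALG3, ALG12, ALG10, ALG10B and OST4 were under 20 UMIs in at least 1 culture.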

Other observations

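The 3 cultures of low mitochondrial share (DMSO run 4, cycloheximide 0.2 µM run 4 and troglitazone run 4) had low levels of many oligosaccharyltransferase genes whatever their treatment. In all 3, 7 of the 10 oligosaccharyltransferase genes lay below the median of the 30 other cultures outside rotenone and cycloheximide 20 µM, and 1, TUSC3, lay above it. Over 10900 genes with a mean of at least 10 CPM, 19.0% lay below in all 3 and 42.0% above. Of the 23 other members, 6 lay below and 7 above.

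STT3A had 15.5, 18.4 and 19.0 CPM in the 3 cultures against 20.4 to 50.3 CPM in the others, with no overlap. RPN1 likewise had 27.0 to 34.5 CPM against 36.2 to 72.7 CPM. DDOST had 28.0 to 40.7 CPM against a median of 50.5 CPM. TUSC3 went the other way, with 367.3 to 402.9 CPM against a median of 303.5 CPM. The cultures were chosen for this description by their mitochondrial share after the data were seen, and why they differ was not tested.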
